A study of Oryza sativa with 6 samples.

Results

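The 300 genes with the highest signals in the roots of unmodified rice of the cultivar Minghui 63 (MH63) are described here, out of 17905 genes that could be ranked, or 1.68% of them. They were chosen from the measured values themselves. Probe sets, the groups of short probes that each read a transcript on the array, were given the mean log2 signal of the 3 MH63 arrays. Where a gene had several, the brightest stood for it, after the array maker's AFFX controls and the RPTR reporter controls had been set aside. The signals that chose the genes are therefore a description and carry no test.

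MH63 is the non-transgenic control of the series, and its plants were germinated for 2 days at 28 °C and then grown in nutrient solution in 8 L containers, with 16 h of light at 30 °C and 8 h of darkness at 26 °C. Roots were taken at a plant age of 30 days, in 3 biological replicates, and 6 ug of total RNA was labelled for 1 Affymetrix rice array per replicate. The other 3 of the 6 arrays in the series belong to a transgenic line and were not used. Whole roots were measured, so fewer cells of a type and less RNA per cell cannot be told apart.

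A root in solution culture takes up water and mineral ions across its epidermis and cortex and passes them to the xylem. Aquaporins are membrane channels for water and small neutral solutes. Those of the PIP family sit in the plasma membrane and those of the TIP family in the vacuolar membrane. Metallothioneins are small cysteine-rich proteins that bind metal ions. Plant roots under low oxygen can obtain energy by glycolysis and by fermentation of pyruvate to ethanol through pyruvate decarboxylase and alcohol dehydrogenase. Flooded rice roots are a well-studied case of this route.

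Median signals over all 57194 probe sets that were not controls were close, at 33.1, 33.8 and 33.5 in replicates 1, 2 and 3. A background level was set for each array at the 95th percentile of its 64 reporter signals, and it was 40.8, 37.1 and 42.3. On all 3 arrays 13921 genes, 77.7%, lay above it, and 3075 genes, 17.2%, lay at or below it on every array. The median signals were themselves below the background level, and the measured genes were less even. For the 13921 genes, the median log2 deviation from the gene mean was 0.074, -0.053 and -0.017 in replicates 1, 2 and 3. Replicate 1 was lowest for 17.0% of them, replicate 2 for 48.1% and replicate 3 for 34.9%. Different probe sets respond differently to the same amount of transcript, so the ranking orders signals and not molecules. With 3 arrays, the precision of all values is limited by their number.

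The root label was checked with marker genes. Of 15 root markers, 14 were above the reporter level on all 3 arrays and 5 were among the 1000 highest genes. Of all named genes, 83.9% were above that level on all 3 arrays, and 282 of 2460 were among the 1000 highest. The highest root marker was Lsi1, the silicon influx channel of rice roots, at rank 119, and the phosphate exporter PHO1-2 followed at rank 561. OsSCR1, which specifies the endodermis and related cells, was at or below the reporter level on every array. None of 17 green-tissue markers, 13 seed markers or 5 pollen and anther markers reached the 300, but only 1 of the 15 root markers did. Above the reporter level on all 3 arrays were 7 of the 17 green-tissue markers and 4 of the 13 seed markers. None of these 3 lists had a member among the 1000 highest genes. The 5 pollen and anther markers were below the reporter level on every array, with OsRAFTIN1 the highest of them at a mean of 26.8 ± 4.75 (SD, n = 3). Among the seed markers the globulin gene GLB was the highest, at 924 ± 116, and GLUA-2, a glutelin gene, followed at 292 ± 33.8. The green-tissue markers were led by the chlorophyll a/b-binding protein gene CAB2R, with signals of 1368, 1373 and 30.2 in replicates 1, 2 and 3. CAB2R was thus well above the reporter level on 2 arrays and below it on the third. CHLG, for chlorophyll synthase, had 317, 297 and 266, and RBCS, for the small subunit of Rubisco, had 135, 189 and 198.

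Signal fell slowly with rank. The highest gene had 4.55 times the mean signal of the gene at rank 300, a distance of 2.18 on the log2 scale. The 300 genes together held 20.2% ± 0.389 of the summed signal of all ranked genes (SD, n = 3), with 19.8%, 20.3% and 20.5% on the 3 arrays. The first 10 genes held 1.5% ± 0.0429 and the first 100 held 9.62% ± 0.220. No single gene dominated, since the highest held 0.196%. The plot of signal against rank shows a curve without a step at rank 300.

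**Figure D1:**
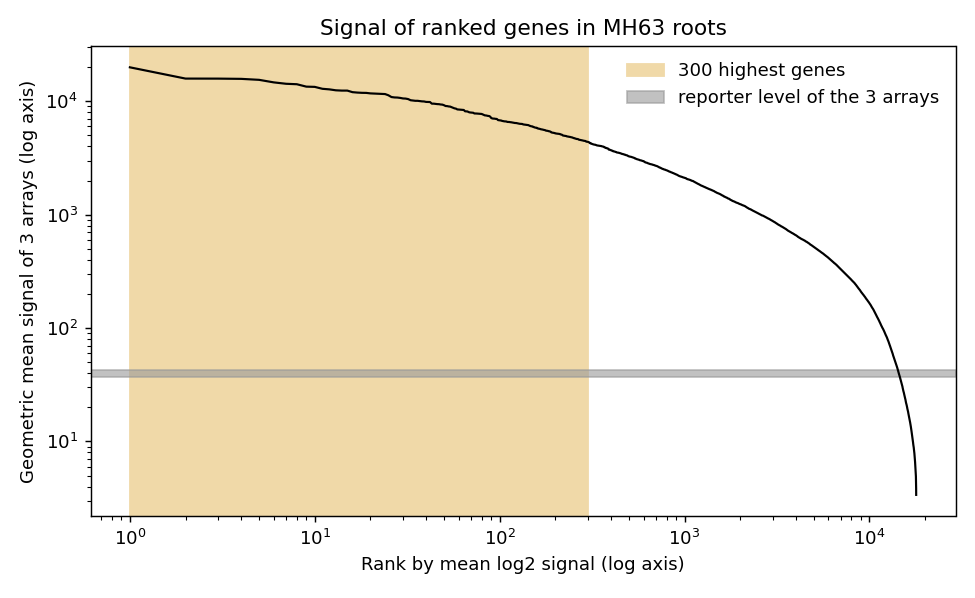
Geometric mean signal of the 3 MH63 arrays (log axis) against rank (log axis) for 17905 genes. The shaded columns are the 300 highest genes, whose signals span a factor of 4.55, and the grey band is the reporter level of the arrays, from 37.1 to 42.3.

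Genes next to each other in the ranking nearly always overlapped in the range of their 3 arrays. In 28 of the 29 adjacent pairs among the first 30 genes, and in 298 of the 299 adjacent pairs among the 300, the arrays of the lower gene reached or passed the lowest array of the higher gene. Neighbours in a ranking have close means, so such overlap is partly given by the ranking. The count did not pair the arrays, and the genes at ranks 6 and 7 overlapped though they kept their order on each array. Ranked on its own, replicate 1 shared 282 of its 300 highest genes with the set, replicate 2 shared 286 and replicate 3 shared 288. In all, 263 genes were in the highest 300 of every array and 341 were in that of at least 1 array. The border itself lay within the spread. LOC4344249 at rank 298 had 5332, 4267 and 3732, RPL9 at rank 299 had 4153, 4187 and 4881, and LOC9267671 at rank 300 had 4274, 4265 and 4622. Just outside, the cysteine proteinase inhibitor gene OC-I at rank 301 had 4251, 5411 and 3655, OsUAM1 at rank 302 had 4676, 4201 and 4224, and LOC4329468 at rank 303 had 4776, 3771 and 4600. The genes on the 2 sides of the border overlapped on the arrays.

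Of the 300 genes, 112 had a name beyond a locus or clone number, 37.3% against 13.7% of all ranked genes. The other 188 carry a number only and are given no role here. Of the named genes, 87 fell into the 21 functional lists, and 25 were in none. The list counts below stand beside 4.55% of all named genes and 1.68% of all ranked genes among the 300. The probe sets of 49 genes, 16.3%, end in _s_at or _x_at and can bind several related transcripts. The share was 12.7% in the next 300 genes and 11.4% of all ranked genes. The gene behind such a signal is uncertain. More than 1 probe set was present for 99 of the 300, and the second brightest was a median of 1.94 lower on the log2 scale. For 49 of those 99 genes the gap was over 2, so a gene's place depends on the probe set that reads it.

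The highest gene, LOC4352868, has no name and was read from an _x_at probe set. Its signals were 19792, 20636 and 19396, above those of every other gene on each array. Without such probe sets, which may also bind related transcripts, it would stand at rank 472. LOC4328390, at rank 5 with 15468 ± 694, would fall to rank 6450 in the same way. Besides these, 12 of the first 30 genes bear only a number. LOC4333690 at rank 6 had a mean of 14684 ± 355, LOC4331301 at rank 11 had 12898 ± 687, LOC4348846 at rank 13 had 12530 ± 1099 and LOC4347027 at rank 14 had 12455 ± 1090. LOC4351088, LOC4336502, LOC4350455, LOC4342941, LOC4340155, LOC4330226, LOC4328121 and LOC4352564 lay between ranks 18 and 30, with means from 10618 to 11903. LOC4347027, LOC4351088 and LOC4328121 were read from _s_at probe sets, and LOC4351088 would stand at rank 1877 without such probe sets.

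The highest gene with a name was a water channel, though metallothioneins (71.4%) and ribosomal proteins (61.9%) had larger shares of their lists among the 300. TIP2-2 (LOC4340941), a vacuolar aquaporin, was at rank 2 with 16362, 14419 and 16898 in replicates 1, 2 and 3. TIP1-1 (LOC4331608), also of the vacuolar membrane, was at rank 4 with 15677, 15694 and 15932. The arrays of TIP1-1 lay within those of TIP2-2, so the order of this pair was not resolved. The plasma membrane channels PIP1-1 at rank 17 and PIP1-2 at rank 23 had 12610, 10921 and 12336, and 10793, 11451 and 12731. These overlapped as well. TIP2-1 at rank 34 had a mean of 10177 ± 707 and PIP2-1 at rank 43 had 9536 ± 426. PIP1-3, PIP2-2 and PIP2-4 completed the PIP members, with means of 6533 ± 622, 6189 ± 667 and 4824 ± 389. With Lsi1, which belongs to the same protein superfamily, 10 of the 25 ranked aquaporin genes, 40.0%, were among the 300, against 4.55% of all named genes. With plain _at probe sets only, the number was 5. The family reached down to the background too. PIP2-6 stood at rank 597 with 2986 ± 366, 3 of the 25 were not above the reporter level on all arrays, and NIP4-1 was the lowest at rank 17846 with a mean of 4.92. Replicate 2 had the lowest signal for 8 of the 10 and replicate 3 for none of them, while over the 300 genes replicate 2 was lowest for 123 and replicate 3 for 79. TIP2-2, TIP2-1, PIP2-1 and PIP2-2 have _s_at or _x_at probe sets. Without such probe sets TIP2-1 would stand at rank 4842, PIP2-2 at rank 9263 and PIP2-1 at rank 35. TIP2-2 has no other probe set.

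Lsi1 carries silicic acid into the outer cells of the root. Its signals were 8585, 4801 and 6600, a wide spread for this set. Replicate 1 was the highest and replicate 2 the lowest, and its rank moved between 82 and 173 when 1 array was left out. Lsi2, the silicon exporter that works with it, had 1707, 947 and 1284 at rank 1914, in the same order of arrays. Other ion transport genes among the 300 were HAK5 and COPT1. HAK5, a potassium transporter gene, stood at rank 92 with 6444, 7187 and 7535, and COPT1, a copper transporter gene, at rank 236 with 5153, 4717 and 4761. These 2 and Lsi1 were the 3 members among 82 ranked genes of phosphate, potassium, silicon and metal transport, a share of 3.66% beside 4.55% of all named genes and 1.68% of all ranked genes. The median rank of that list was 8937.5, against 6820 for all named genes and 8953 for all ranked genes. With plain _at probe sets only, 5 of its genes were among the 300 highest. IRT1, for iron uptake, was the highest member outside the set, with 4009 ± 516 at rank 363.

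Nitrogen assimilation was present through cytosolic glutamine synthetase, which joins ammonium to glutamate. GLN1-1 stood at rank 50 with 9969, 9052 and 8728, and GLN1-2 at rank 80 with 7719, 7050 and 8483. Each gene has a plain _at probe set of its own. GDH1, for glutamate dehydrogenase, followed at rank 635 with 2846 ± 249, and the ammonium transporter gene AMT1-1 at rank 870 with 2327 ± 100. The 19 members of the list had a median rank of 3559.

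MST3, a monosaccharide transporter gene in none of the lists, was at rank 12 with 12682, 12844 and 12683, which differ by less than those of most genes in the set. OsSUS2, for sucrose synthase, which splits sucrose for metabolism, had 6779, 6675 and 5624 at rank 128. UGD4, for the enzyme that turns UDP-glucose into UDP-glucuronic acid, had 5289, 5184 and 6027 at rank 181.

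Glycolysis was represented by 4 of its enzymes. Eno1, for enolase, was at rank 35 with 11462, 11202 and 8018. GAPC and GAPC3, for cytosolic glyceraldehyde-3-phosphate dehydrogenase, were at ranks 48 and 70 with means of 9373 ± 373 and 8019 ± 1221. TPI, for triosephosphate isomerase, had 9005, 9035 and 8287 at rank 56. The aldolase genes FBA1 and AldC-1 stood at ranks 157 and 228, with 5866 ± 445 and 5060 ± 1275. GAPC and AldC-1 were read from _s_at and _x_at probe sets. The ethanol branch was present as well. Adh2, for alcohol dehydrogenase, had 7382, 7008 and 5858 at rank 103, and PDC2, for pyruvate decarboxylase, had 6364, 6378 and 3406 at rank 207. In all, 9 of 32 ranked genes of glycolysis, sucrose cleavage and fermentation, 28.1%, were among the 300, against 4.55% of all named genes. The list's median rank was 4659.5, since many isoforms were dim. The count of 9 became 5 with plain _at probe sets only.

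Metallothioneins had the largest share of a list among the 300, with 5 of 7 ranked genes and a median rank of 73. The count depended on the choice of probe set. Without _s_at and _x_at probe sets, 5 metallothionein genes and 9 ribosomal protein genes were among the 300 highest. Plain _at probe sets alone gave 2 and 10. OsMT1c and OsMT2b have no plain _at probe set and were not ranked there. The only plain _at probe set of OsMT2c had a mean of 7.85, under the reporter level. The sizes of the lists were not counted in that setting, so the shares cannot be compared. OsMT1c was at rank 7 with 13578, 14223 and 15041, and OsMT1a at rank 29 with 10150, 10670 and 11332. In this pair replicate 3 was the highest. MT1B at rank 202 had 5174, 5256 and 5162, nearly equal on the 3 arrays. OsMT2b at rank 52 had 13323, 14638 and 3821, and OsMT2c at rank 73 had 8662, 10553 and 5211. For these type 2 genes replicate 3 was the lowest by far. The remaining members, OsMT-I-2a and OsMT-I-4a, stood at ranks 624 and 840 with 2947 ± 766 and 2390 ± 300.

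**Figure D2:**
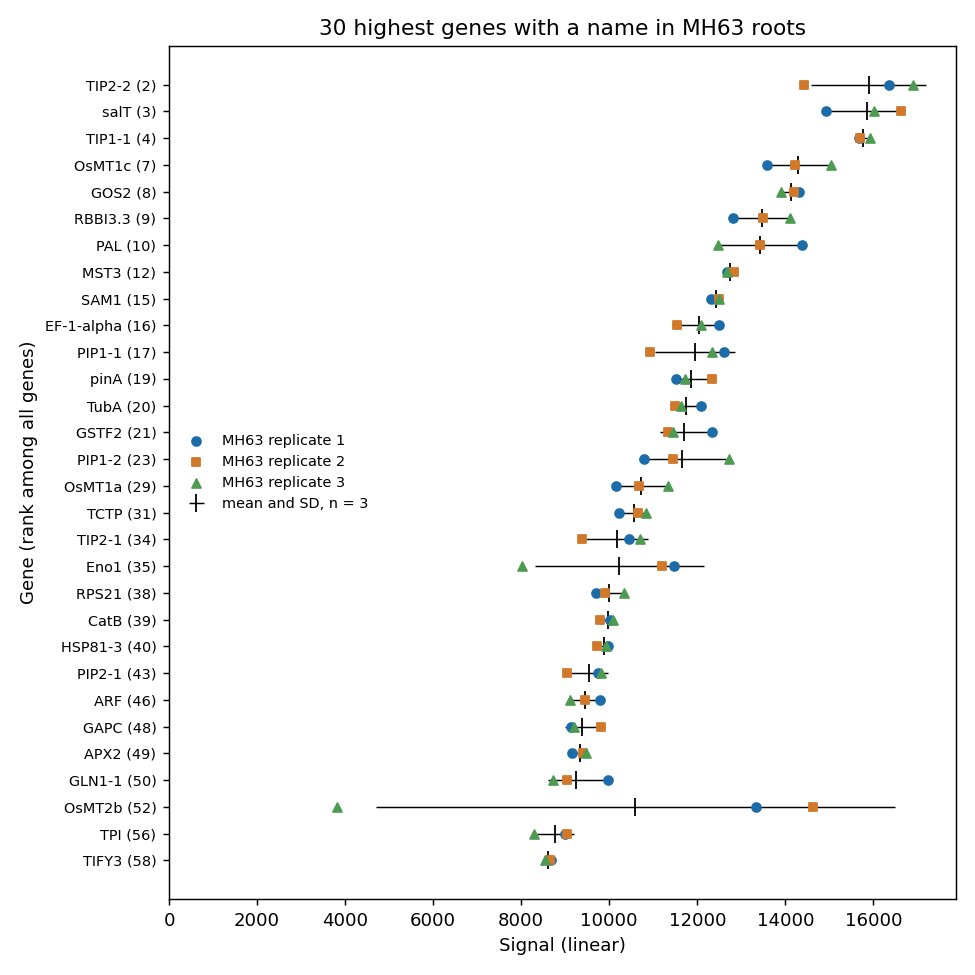
Signal (linear axis) of the 30 highest genes with a name, one line per gene with its rank among all genes in brackets, points for the 3 MH63 replicates, and a bar for the mean and SD. Most genes have points close together, whereas OsMT2b has 13323 and 14638 in replicates 1 and 2 and 3821 in replicate 3.

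Proteins of the cytosolic ribosome and of translation formed another dense group. Of 21 ranked ribosomal protein genes 13, 61.9%, were among the 300, against 4.55% of all named genes. Among the 1000 highest were 19, and all were above the reporter level on all 3 arrays. RPS21 led with 9710, 9904 and 10345 at rank 38, followed by QM1, for protein L10 of the large subunit, with 7592 ± 190. RPS27AA and RPS27AB, which encode ubiquitin fused to a ribosomal protein, had 6581 ± 277 and 6210 ± 464. RPS3A, RPL10A, RPL39B, RPL7A-2, RPL7A-1, RPL3, RPS4, RPS26 and RPL9 lay between ranks 145 and 299, with means from 4407 to 6104. QM1, RPS3A, RPL10A, RPL39B and RPL9 were read from _s_at or _x_at probe sets. Without those, QM1 would stand at rank 14979 and RPL10A at rank 12232, so their places are uncertain. RPS10-1 was the exception at rank 7930, with a mean of 270.3. GOS2, for the initiation factor eIF1, had 14320, 14198 and 13901 at rank 8, and its 3 arrays stayed close together. EF-1-alpha, which brings aminoacyl-tRNA to the ribosome, had 12503, 11548 and 12078 at rank 16. It was read from an _x_at probe set and has no rank without such probe sets. EF-1-beta, its exchange factor, had 4980, 4703 and 4956 at rank 234. GOS2, EF-1-alpha and EF-1-beta were 3 of 9 ranked translation factors, 33.3%. RACK1A, a scaffold protein that sits on the small ribosomal subunit, had 5816, 4778 and 4718 at rank 216, and TCTP, a growth-related protein, had 10222, 10646 and 10830 at rank 31.

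Cytoskeleton genes gave 7 of 24 ranked members, 29.2%, against 4.55% of all named genes. The alpha-tubulin gene TubA (LOC4350197) at rank 20 had 12092, 11504 and 11629. The beta-tubulin genes TUB1, TUB5 and TUB6 had means of 5679 ± 339, 4731 ± 163 and 4628 ± 471. Actin was present through ACT7 with 7490 ± 389 and ACT1 with 4583 ± 100, and ADF4, for an actin-depolymerizing factor, had 6998 ± 78.7. TubA, ADF4 and ACT1 were read from _s_at probe sets. Protein turnover gave 4 of 27 members, 14.8%, of which UBC5A, for a ubiquitin-conjugating enzyme, was the highest at rank 108 with 6641 ± 197. UBQ1, for ubiquitin, had 4543 ± 211 at rank 276, and the others were RPS27AA and RPS27AB.

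Folding proteins gave 5 of 41 members, 12.2%, against 4.55% of all named genes. HSP81-3, HSP81-1 and HSP81-2, all of the HSP90 chaperone class, stood at ranks 40, 72 and 100 with means of 9876 ± 130, 7946 ± 801 and 6808 ± 371. HSP81-3 was read from an _s_at probe set and would stand at rank 2396 without it. CRT1, for calreticulin, and BIP1, an HSP70 chaperone of the endoplasmic reticulum, had 6950 ± 121 and 5076 ± 259.

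Genes against reactive oxygen and foreign compounds gave 6 of 54 members, 11.1%, against 4.55% of all named genes. The count became 3 with the mean or the median of the probe sets or with plain _at probe sets only. GSTF2, for a glutathione transferase, was at rank 21 with 12344, 11340 and 11441. CatB, for catalase, and APX2, for cytosolic ascorbate peroxidase, both remove hydrogen peroxide, and they had 10017, 9788 and 10088, and 9154, 9414 and 9466. The arrays of each gene lay close together. CatB was read from an _s_at probe set and would stand at rank 83 without such probe sets. TRXH, for thioredoxin h, had 7472 ± 818, APX1 had 5624 ± 580, and SODCC.1, for copper-zinc superoxide dismutase, had 4970 ± 148. The 54 members had a median rank of 3973.5.

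Enzymes of the phenylpropanoid pathway, which serves lignin and other phenolics, and enzymes of S-adenosylmethionine metabolism were in the same list. That list gave 5 of 33 members, 15.2%, against 4.55% of all named genes. With plain _at probe sets only, the count was 3. PAL (LOC4330034), for phenylalanine ammonia-lyase at the entry to the pathway, was at rank 10 with 14374, 13413 and 12476. SAM1, for S-adenosylmethionine synthetase, which makes the methyl donor, was at rank 15 with 12303, 12484 and 12485. PAL comes from an _x_at probe set, and without such probe sets it would stand at rank 338, so its place is uncertain. ROMT-15, an O-methyltransferase gene, had 7430 ± 244, and CAD2, for cinnamyl alcohol dehydrogenase, had 5338 ± 493. SAMDC, for the decarboxylase that turns S-adenosylmethionine towards polyamines, had 6676 ± 651. DAHPS2, for the first enzyme of the shikimate pathway that feeds phenylalanine, stood at rank 115 with 6540 ± 272. It was read from an _s_at probe set and would stand at rank 250 without such probe sets. CESA3, a cellulose synthase gene, was the 1 member among 55 cell wall genes, with 5013, 4593 and 4954 at rank 240. That share of 1.82% was below the 4.55% of all named genes. The count became 2 without replicate 1, without replicate 2 or without _s_at and _x_at probe sets. XTH8 was the nearest outside, at rank 306 with 4347 ± 615.

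Defence-type proteins included salT (LOC4326471), a mannose-binding lectin gene first known as salt-induced, at rank 3 with 14935, 16633 and 16010. It overlapped with both leading TIP genes on the arrays. RBBI3.3, for a Bowman-Birk trypsin inhibitor, was at rank 9 with 12813, 13504 and 14107, and was read from an _s_at probe set. The germin-like protein genes GER4 and GER2 had 6448 ± 617 and 5244 ± 814, and OC-III, a cysteine proteinase inhibitor gene, had 5294 ± 249. These 4 of 24 list members, 16.7%, did not include a chitinase, of which Cht2 was the highest at rank 567.

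Regulators of hormone responses gave 7 of 83 members, 8.43%, against 4.55% of all named genes. TIFY3 and TIFY10B, of the family that holds the jasmonate repressors, had 8669, 8650 and 8531, and 6494, 6808 and 5894. EIL1, for an ethylene-response transcription factor, had 6015, 6068 and 6470. The auxin-response repressor genes IAA3, IAA17 and IAA13 had means of 6009 ± 58.0, 4910 ± 460 and 4509 ± 89.8. IAA17 was read from an _s_at probe set and has no other. D14, for the strigolactone receptor, had 4748, 5101 and 5130 at rank 220. IAA3 and TIFY3 were among the steadiest genes, with an SD of 0.01 each on the log2 scale. The list as a whole was ordinary in level, with a median rank of 6841 beside 6820 for all named genes.

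Calmodulins and 14-3-3 proteins gave 3 of 33 members, 9.09%, against 4.55% of all named genes. Such small counts say little of the family. CAM3, for calmodulin, had 5461 ± 458, and the 14-3-3 protein genes GF14F and GF14B had 5254 ± 514 and 4629 ± 127. RAN2, a small GTPase gene of nuclear transport, had 5510 ± 328 at rank 179. It was the 1 member, 7.69%, among the 13 genes that name patterns placed in the small GTPase list. Small GTPase genes under other names would be missed by that list. ANT, for the ADP/ATP carrier of mitochondria, and CC-1, for cytochrome c, had 6456 ± 94.8 and 5888 ± 529. They were the 2 members, 22.2%, among 9 genes of mitochondrial carriers and respiration. Histones, class III peroxidases and lipid transfer proteins gave no member, and their highest genes were H2B.6 at rank 454, PRX74 at rank 575 and LTPL1 at rank 969. These lists held 5, 2 and 5 ranked genes, so they say little of their families.

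Named genes outside the lists were mixed in role. The pinA gene stood at rank 19 with 11524, 12338 and 11723, and ARF at rank 46 with 9784, 9444 and 9114. LTI6B and LTI6A, for small membrane proteins of the low-temperature-induced type, had 6437 ± 175 and 6177 ± 352. ATG8C, of autophagy, had 5178 ± 316, NADP-ME2, for malic enzyme, had 4573 ± 67.4, and GLYI-11, a glyoxalase I gene, had 5549 ± 82.2. GI, the rice GIGANTEA gene of the circadian clock, had 4749, 4300 and 4315 at rank 292. The other named genes, PP37, OsCASPL1D1, SC34, NDKR, Osr40c1, SAP8, OsOBF1, NTF2, RAP, HIRL1 and CLPC1, lay between ranks 109 and 261 with means from 4653 to 6633. RAP was read from an _s_at probe set.

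**Figure D3:**
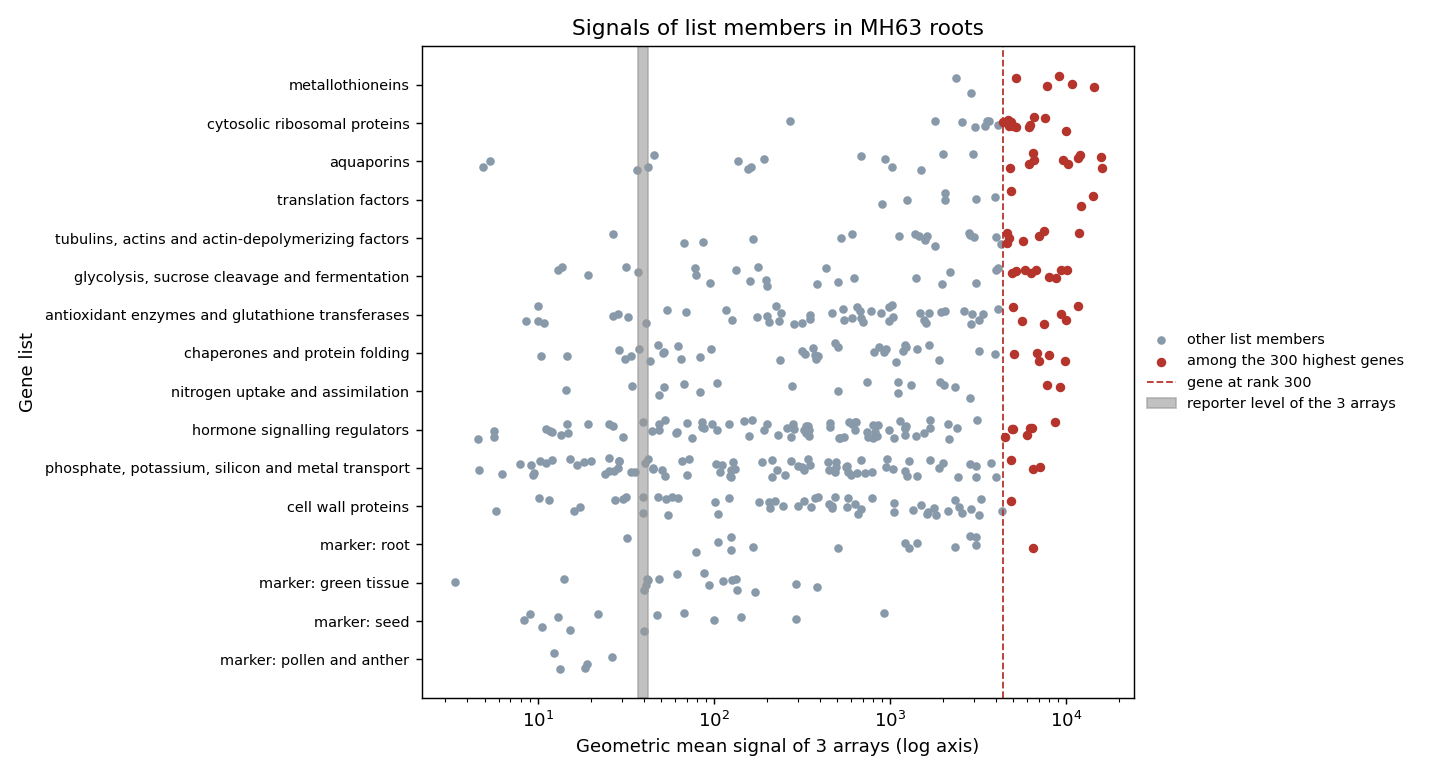
Geometric mean signal of the 3 MH63 arrays (log axis) for the genes of 16 lists, one point per gene and points shifted up or down only to separate them. Red points right of the dashed line are among the 300 highest genes, 5 of 7 for metallothioneins and 13 of 21 for ribosomal proteins, while the pollen and anther markers lie left of the grey reporter band.

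Replicates agreed more closely for these genes than over all ranked genes, while the gap to the next 300 genes was smaller. The median SD on the log2 scale was 0.078 for the 300, 0.096 for the next 300 and 0.145 for all ranked genes. The SD was under 0.2 in 278 of the 300 and in 254 of the next 300. The highest array was under 1.5 times the lowest in 294 genes, with a median ratio of 1.11, and it was 1.5 times or more in 6.

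The 8 genes with the widest spread were OsMT2b, OsMT2c, PDC2, Lsi1, AldC-1, LOC4332413, Eno1 and LOC4333416, with SDs of 1.08, 0.53, 0.52, 0.42, 0.40, 0.32, 0.29 and 0.28 on the log2 scale. In 5 of them, OsMT2b, OsMT2c, PDC2, AldC-1 and Eno1, replicate 3 was the lowest. LOC4332413 and LOC4333416 went the other way, with replicate 3 the highest at 6477 and 5380 and replicate 1 the lowest at 4152 and 3667. OsMT2b held rank 52 with all arrays, rank 82 without replicate 1, rank 89 without replicate 2 and rank 8 without replicate 3.

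Other probe sets of the same genes were compared. All 5 probe sets of OsMT2b were lowest on replicate 3, with a log2 difference from the mean of the other arrays of -1.87 for the brightest and from -2.34 to -1.68 for the rest. For OsMT2c the 3 bright probe sets were lowest on replicate 3, and the other was at a mean of 7.85, under the reporter level. The brightest probe set of each of these genes is an _a_at probe set, but several of the others are _x_at. Those can bind related transcripts, so the probe sets are not independent readings of each gene. The second probe set of PDC2, with 925, 641 and 272, had the same order between replicate 3 and the others. For AldC-1 it did not, since its second probe set had 2551, 3000 and 2756 while the brightest, an _x_at probe set, had 6019, 5546 and 3613. For Eno1 it did not either, since its second probe set had 73.5, 121.8 and 78.3, lowest on replicate 1, and the remaining one was under the reporter level.

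Genes of glycolysis and fermentation were often lowest on the same array. Of the 9 list members among the 300, 8 were lowest on replicate 3, against 79 of the 300. The exception was GAPC, lowest on replicate 1. Among list genes above the reporter level on every array, 15 of 27, 55.6%, were lowest on replicate 3, against 34.9% of all 13921 such genes. Outside the 300, PDC1, another pyruvate decarboxylase gene, had 3159, 4506 and 732, and PPDK2, for pyruvate phosphate dikinase, had 3811, 5740 and 1330. PPDK1 had 4192, 3921 and 4127 and OsSUS1 had 4503, 3712 and 3836, so not all members moved alike. On the same array the summed signal of the 17 green-tissue markers was 1068, against 3173 and 3246 in replicates 1 and 2, with 4 of the 7 that were measured on every array lowest there. Much of the fall in the sum came from CAB2R, with 1368, 1373 and 30.2, while RBCS was highest on replicate 3. The part of the green-tissue markers in the pattern was not tested. No test between arrays is possible within 1 group, so these values describe replicate 3 only.

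**Figure D4:**
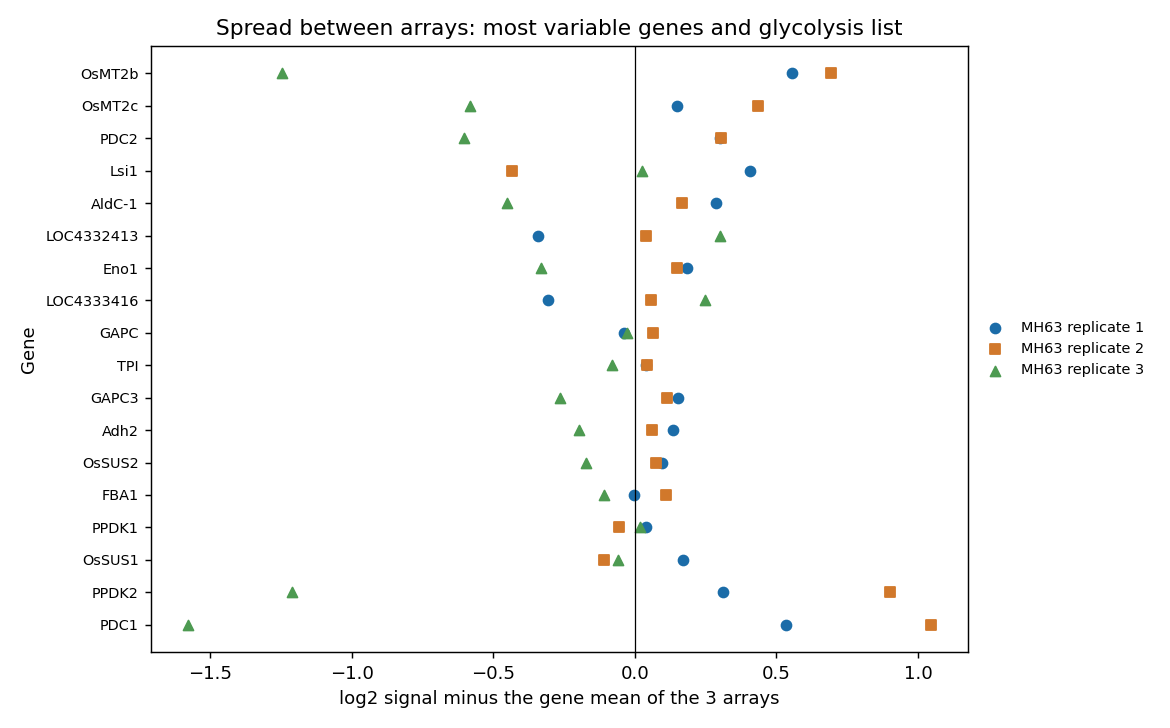
Difference of each replicate's log2 signal from the gene's mean over the 3 MH63 arrays, for the 8 most variable of the 300 genes and, below them, the other glycolysis, sucrose cleavage and fermentation genes among the 1000 highest. Replicate 3 lies left of the other points for OsMT2b, OsMT2c, PDC2, PDC1 and PPDK2, and Lsi1 has replicate 2 as its lowest point.

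Some of the 300 lie side by side in the genome. In the RefSeq order of protein-coding genes, 14 pairs were adjacent or had 1 gene between them, 9 of them adjacent, and these made 13 groups with 27 genes. Pairs were not counted for other sets of genes, so it is not known whether 14 is a high number. The largest group held 3 genes, LOC4330032, PAL and LOC4330036, at ranks 90, 10 and 180. LOC4330032 had 6921, 7433 and 7046, and LOC4330036 had 5867, 5488 and 5148, each from a plain _at probe set. RBBI3.3 lay next to pinA, at ranks 9 and 19. PIP2-1 and PIP2-4 were separated by 1 gene and stood at ranks 43 and 244. PAL, RBBI3.3 and PIP2-1 were read from _s_at or _x_at probe sets, which can bind related transcripts.

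Probe sets without a gene in the annotation were not ranked. Of the 300 brightest probe sets, 252 had 1 gene, 11 had several and 37 were not listed, and the 252 stood for 226 genes. The brightest unlisted probe set had 21066, 20935 and 18425. It was above the highest ranked gene in replicates 1 and 2 and below it in replicate 3, so their order was not resolved. In all, 48 unlisted probe sets were above the gene at rank 300. The 300 genes are therefore the highest of those that could be named, and not of all transcripts on the array.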

How the data were processed

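Signals are the deposited probe set intensities of the authors on a linear scale, read without an offset. MAS5 is named in the submitters' processing notes, without a version, and further scaling or summary steps are not given in the sources used here. No detection calls were used. Groups came from the sample titles, and the 3 MH63 arrays were used without further normalization. Of 57194 probe sets besides 187 controls, 22436 have 1 gene in the platform annotation, 95 have several and 34663 are not listed. All 17905 genes matched RefSeq by gene number, and 2460 have a name. RefSeq assembly ASM3414082v1 served for names and gene order only.

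Genes were ranked by the brightest probe set's mean log2 signal. The text names the 30 highest genes, the 30 highest with a name, up to 4 of each list, 3 on each side of rank 300, the 8 most variable, 3 neighbour groups and the markers. Other list members, transporters and probe sets are named beside these and were chosen after their values were seen. The members and lists were chosen with earlier results of these data known. The lists were formed from names and synonyms by search patterns, and some patterns were corrected after the matched names were read.

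Errors are SDs over 3 arrays, without a test. The ranking step was tested on simulated data as a check of the code only. Python 3.11.15, pandas 2.3.3, numpy 2.4.6 and matplotlib 3.10.9 were used. Alternatives covered the averaging over arrays, quantile normalization, the choice of probe set, the rank limit and leaving out each array.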

Additional observations from a re-analysis of the deposited data

How the results depend on the processing

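Of the 300 genes, 299 remained with the mean of linear signals, 295 with the median over arrays and 299 after quantile normalization, and 290 to 297 when 1 array was left out. The choice of probe set mattered more. Averaging all probe sets per gene kept 223, their median kept 232, leaving out _s_at and _x_at probe sets kept 259, and plain _at probe sets only, an alternative chosen after seeing the data, kept 214. Of 17905 genes, 16977 could still be ranked without _s_at and _x_at probe sets, and 16119 with plain _at probe sets only. Genes left without a probe set dropped out of the ranking and of the list counts, whatever their signal. List members numbered 87 among the 300, from 67 to 89 over these settings (88 to 89 when 1 array was left out), and 80 with the lists as planned. At rank 150 they numbered 52, and at rank 600 they numbered 129. The share with a name was 37.3% at rank 300, 43.3% at rank 150 and 32.0% at rank 600. With plain _at probe sets only, 7 of the 21 list counts moved by over 1.5 times. Those of glycolysis, aquaporins, metallothioneins, antioxidant enzymes and phenylpropanoid enzymes fell from 9, 10, 5, 6 and 5 to 5, 5, 2, 3 and 3, and those of ion transport and small GTPases rose from 3 and 1 to 5 and 2. At most 3 moved under any other setting at rank 300. With the mean or median of the probe sets these were antioxidant enzymes (3), mitochondrial genes (1 in place of 2) and small GTPases (2). No paired analysis was possible because only MH63 arrays were used and no groups were compared. The planned description of protein lengths and promoter motifs was not run. With 3 arrays, the signal ranges of nearly all genes next to each other among the 300 overlapped, and dim signals near the reporter level have no order.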

Other observations

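Below rank 300 a few genes differed widely between the 3 arrays, and they were chosen after their values were seen. PBZ1, a pathogenesis-related gene at rank 974, had 827, 6161 and 1928 in replicates 1, 2 and 3. LTP2-B, a lipid transfer protein gene, had 855, 1779 and 15.1. The nicotianamine synthase genes NAS1 and NAS2, which serve iron transport, had 95.4, 55.9 and 370.1, and 103, 71.5 and 265, both highest on replicate 3. The seed gene RAG2 had 82.6, 33.7 and 356 from an _s_at probe set. Both probe sets of CAB2R were lowest on replicate 3, with 1368, 1373 and 30.2 for the brightest and 659, 635 and 31.5 for the other.

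Genes lowest on replicate 2 were frequent in some lists. Among genes above the reporter level on every array, 33 of 43 cell wall genes and 37 of 55 ion transport genes were lowest there, against 6698 of all 13921. Of 21 ribosomal protein genes, 12 were lowest on replicate 1 and 1 on replicate 3, against 2367 and 4856 of all 13921. The cause of these differences was not tested.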
